A study of Mus musculus with 2 samples.

Results

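Transcripts of 7 Toll-like receptor genes, Tlr1, Tlr2, Tlr6, Tlr7, Tlr8, Tlr9 and Tlr13, were followed through droplet single-cell RNA libraries of mouse bone marrow derived macrophage cultures. The 7 genes were taken by symbol from the 31053 genes of the deposited feature list, where each symbol is given in both libraries. The cultures came from wild-type 129Sv mice and were grown from marrow cells with M-CSF, the macrophage growth factor, at 50 ng/ml in a medium holding 10% serum. On day 7 one culture received 1 µg/ml of a truncated, non-polymerizing form of Tamm-Horsfall protein (THP; its other name is uromodulin), which the kidney secretes into urine, and the other received the vehicle, 5% dextrose, each for 18 hours. The comparison asks which of these receptors' transcripts differ after exposure to the protein, in the whole culture and within its cell classes. Each group is 1 library, so no difference below has a replicate check, no p-value is given, and every interval is an exact 95% interval for counting error alone.

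Toll-like receptors are membrane proteins that recognise conserved microbial molecules and signal mostly through the adaptor MyD88. Tlr2 sits on the cell surface and pairs with Tlr1 or with Tlr6 to bind bacterial lipopeptides. Tlr7, Tlr8, Tlr9 and Tlr13 act inside endosomes, where they meet nucleic acids: single-stranded RNA for Tlr7 and Tlr8, CpG-containing DNA for Tlr9 and bacterial ribosomal RNA for Tlr13. Macrophages, monocytes and neutrophils carry Tlr2, and plasmacytoid dendritic cells are known for Tlr7 and Tlr9.

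In the mouse assembly GRCm38 with the GENCODE M21 annotation, all 7 are protein-coding genes that no other annotated gene overlaps. Tlr1 (chr5:64924679-64933563) and Tlr6 (chr5:64952031-64960097) lie 18467 bases apart on the minus strand of chromosome 5. Tlr7 (chrX:167304929-167330558) and Tlr8 (chrX:167242696-167264329) are neighbours on the minus strand of the X chromosome, 40599 bases apart, and Tlr13 (chrX:106143204-106160493) is on the plus strand of the same chromosome. Tlr2 (chr3:83836272-83841767) is on the minus strand of chromosome 3 and Tlr9 (chr9:106222598-106226883) on the plus strand of chromosome 9. Their longest transcripts run from 3014 bases for Tlr2 to 4060 bases for Tlr13. Each UMI (unique molecular identifier) stands for 1 captured molecule whatever its length, so levels in CPM (UMIs of a gene for each 1000000 UMIs counted) are set side by side between these genes without a division by length.

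Tlr1 and Tlr6 share long stretches of identical sequence, which is shown here because reads from such a stretch cannot be assigned to either gene. The longest identical run of their transcripts has 229 bases, lies wholly in the coding sequence of both, and ends 858 bases before the 3′ end of the Tlr1 transcript and 1797 bases before that of Tlr6. The run reads as follows, 5′ to 3′ on the transcript strand.
Tlr1 and Tlr6: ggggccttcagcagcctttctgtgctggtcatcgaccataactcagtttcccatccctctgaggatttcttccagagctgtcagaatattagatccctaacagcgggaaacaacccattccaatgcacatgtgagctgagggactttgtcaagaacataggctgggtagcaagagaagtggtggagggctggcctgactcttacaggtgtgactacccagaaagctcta
All 60-base words that the pair shares lie 469 to 1147 bases from the 3′ end of Tlr1 and 1408 to 2086 bases from that of Tlr6. For every other pair among the 7 genes the longest identical run was 11 to 16 bases.

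The promoter windows of Tlr2, Tlr8 and Tlr13 are printed, the members past 2-fold in cells of the macrophage class described below. Tlr1 was past 2-fold in some alternative settings given at the end, and its windows are not printed. Each window is RefSeq sequence of the build GRCm38.p6, from 250 bases before to 50 bases after a gene start, read 5′ to 3′ on the gene's strand. Such windows were matched for 6 of the 7 members, all but Tlr7. Capitals mark matches on either strand to the PU.1 core GAGGAA or to the 10-letter NF-kB consensus. The windows are chr3:83841559-83841858 (minus strand) for Tlr2, chrX:167264280-167264579 (minus strand) for Tlr8 and chrX:106143025-106143324 (plus strand) for Tlr13.
Tlr2: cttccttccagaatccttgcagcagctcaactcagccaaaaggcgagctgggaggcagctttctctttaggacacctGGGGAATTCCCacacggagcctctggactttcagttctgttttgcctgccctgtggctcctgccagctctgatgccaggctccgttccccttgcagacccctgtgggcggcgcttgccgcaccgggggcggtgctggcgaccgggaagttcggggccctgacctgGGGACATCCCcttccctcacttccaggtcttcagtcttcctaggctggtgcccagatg
Tlr8: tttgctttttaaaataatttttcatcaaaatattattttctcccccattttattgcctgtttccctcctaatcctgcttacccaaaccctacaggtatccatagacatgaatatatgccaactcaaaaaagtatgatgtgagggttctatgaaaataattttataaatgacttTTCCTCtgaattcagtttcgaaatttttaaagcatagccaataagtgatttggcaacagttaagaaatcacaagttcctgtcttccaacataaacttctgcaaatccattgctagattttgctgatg
Tlr13: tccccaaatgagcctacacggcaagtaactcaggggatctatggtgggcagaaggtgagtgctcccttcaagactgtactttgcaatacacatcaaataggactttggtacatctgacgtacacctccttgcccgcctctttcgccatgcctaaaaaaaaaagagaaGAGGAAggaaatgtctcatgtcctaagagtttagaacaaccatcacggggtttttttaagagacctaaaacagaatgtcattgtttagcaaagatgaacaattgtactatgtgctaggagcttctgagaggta
The Tlr2 window held 3 matches to the NF-kB consensus, 2 of which overlap in 1 run, and none of the windows of Tlr1, Tlr6, Tlr8, Tlr9 and Tlr13 held one. Of 32817 promoter windows of the same length, 4.504% held at least 1 such match. The PU.1 core was found once in the Tlr8 window, once in that of Tlr13, once in 1 of the 2 windows of Tlr1 and at 2 places in that of Tlr9, against 28.3% of all windows with a match. A match is a description of the letters in the window and was not tested as a binding site.

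After a filter on genes, UMIs and mitochondrial share, 12123 of 13193 THP barcodes and 10978 of 11584 vehicle barcodes were kept, with 224825484 and 207662132 UMIs and a median of 16113 and 17223 UMIs per cell. The libraries shared 42 barcode sequences, 38 of them among kept cells. The cultures were labelled as macrophages, and 41.0% of kept THP cells and 27.4% of kept vehicle cells were placed in the macrophage class, called macrophage-gated here: past the limit for macrophage markers (C1qa, Adgre1, Mrc1 and others) and for no other class. More cells than these passed the macrophage limit itself, since osteoclast-like cells, for example, had a median of 15.1 and 13.6 macrophage-marker UMIs per 10000 against the limit of 8. Neutrophil-gated cells made up 19.2% and 26.0%. The makeup therefore differs between the libraries, and whole-library values carry that difference. Among 8012 genes with at least 10 CPM in 1 library the median log2 ratio of THP over vehicle was -0.18 with library totals and 0.11 with TMM factors (edgeR's trimmed mean scaling), so receptor ratios are best read against that median.

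In the whole libraries the surface receptor Tlr2 was higher and the endosomal receptors Tlr7, Tlr8 and Tlr13 were lower after THP, while Tlr6 was nearly the same in both. Tlr2 measured 90.9 CPM (89.7 to 92.2) with THP against 31.0 CPM (30.2 to 31.7) with vehicle, a ratio of 2.94 (2.85 to 3.02) and a log2 ratio on the CPM + 1 scale of 1.52. Tlr1, its partner for triacylated lipopeptides, measured 11.2 CPM (10.8 to 11.6) with THP and 5.45 CPM (5.14 to 5.78) with vehicle. The plain Tlr1 ratio was 2.05 (1.91 to 2.21), and on the CPM + 1 scale its log2 ratio of 0.92 fell short of the 2-fold limit. Tlr6, the partner for diacylated lipopeptides, measured 3.96 CPM (3.70 to 4.23) and 3.68 CPM (3.42 to 3.95), a ratio of 1.08 (0.976 to 1.19). The interval of the Tlr6 ratio includes 1, and its log2 ratio of 0.08 turned to -0.15 when each cell had equal weight and to -0.01 with the same class mix in both libraries.

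Tlr8 showed the lowest ratio of the endosomal members. It measured 3.92 CPM (3.67 to 4.19) with THP against 13.9 CPM (13.4 to 14.4) with vehicle, a ratio of 0.283 (0.262 to 0.305) and a log2 ratio of -1.60. Tlr13, the receptor for bacterial ribosomal RNA, measured 30.6 CPM (29.9 to 31.4) with THP and 50.7 CPM (49.8 to 51.7) with vehicle, a ratio of 0.604 (0.586 to 0.622). Tlr7 measured 16.5 CPM (15.997 to 17.1) and 22.9 CPM (22.2 to 23.5), a ratio of 0.722 (0.691 to 0.754). On the log2 scale Tlr13 stood at -0.71 and Tlr7 at -0.45, against the median of -0.18 for all genes past the minimum. With TMM factors these were -0.43 and -0.18, so the direction of both held. The median of all genes past the minimum moved as well, to 0.11, and both genes stayed below it.

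Tlr9 was barely detected, with 34 UMIs in all THP cells and 62 in all vehicle cells. Its level was 0.151 CPM (0.105 to 0.211) with THP and 0.299 CPM (0.229 to 0.383) with vehicle. The plain ratio was 0.507 (0.323 to 0.782). At such levels the pseudocount sets much of a log2 ratio, which was -0.17 with 1 CPM added and -0.67 with 0.1 CPM added. The first of these turned to 0.054 when the trend of ratios over transcript length was removed. The ratio of the other 6 members kept its sign under that correction, with log2 values of 1.09 for Tlr1, 1.69 for Tlr2, 0.33 for Tlr6, -0.18 for Tlr7, -1.37 for Tlr8 and -0.43 for Tlr13.

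Of the 5 members past the minimum of 10 CPM (Tlr1, Tlr2, Tlr7, Tlr8 and Tlr13), 1 was at least 2-fold higher with THP (Tlr2), where 0.911% of the 8012 genes were, and 1 was at least 2-fold lower (Tlr8), where 2.97% were. These counts over all genes are 73 higher and 238 lower with library totals, and 138 higher and 69 lower with TMM factors. Of the same 8012 genes, 99.6% had a lower ratio than Tlr2 and 98.9% a lower ratio than Tlr1, while 0.237% had a lower ratio than Tlr8. Tlr13 and Tlr7 stood inside the bulk of the genes, with 10.9% and 27.0% of genes below them. The middle 95% of genes spanned log2 ratios of -1.04 to 0.56, so Tlr1, Tlr2 and Tlr8 lay outside that span.

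**Figure D1:**
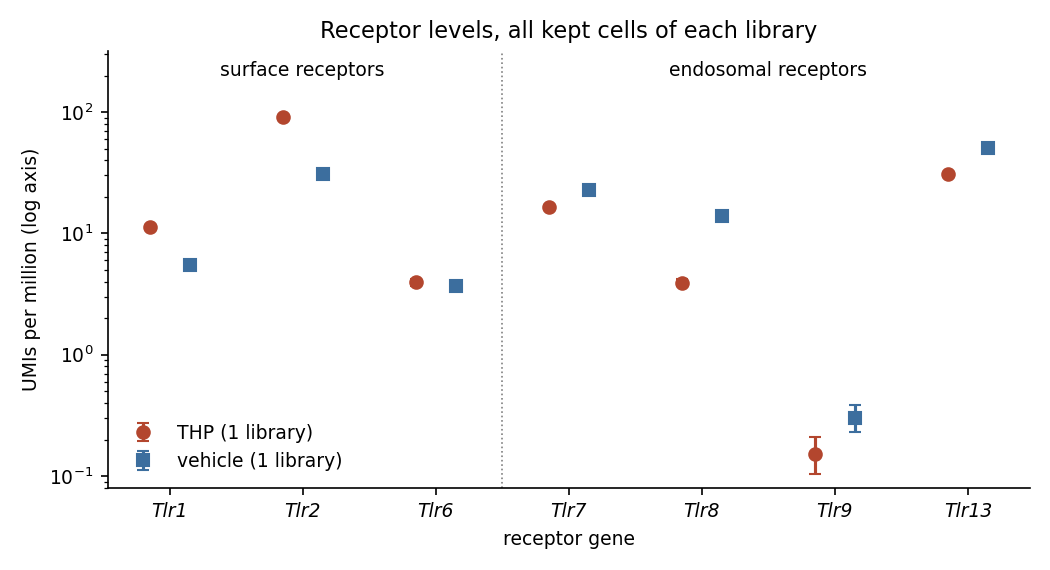
Level of each receptor gene in CPM (log axis) in all kept cells of the THP library (circles) and the vehicle library (squares), with exact 95% Poisson intervals for counting error. Tlr2 and Tlr1 are higher in the THP library, Tlr6 is nearly level, and Tlr7, Tlr8 and Tlr13 are lower, with Tlr9 below 0.5 CPM in both.

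The order of the 7 levels differed between the libraries. With vehicle, Tlr13 (50.7 CPM) was the most abundant, followed by Tlr2 (31.0), Tlr7 (22.9), Tlr8 (13.9), Tlr1 (5.45), Tlr6 (3.68) and Tlr9 (0.299), and no neighbours in that order had overlapping intervals. With THP, Tlr2 (90.9 CPM) came first, followed by Tlr13 (30.6), Tlr7 (16.5) and Tlr1 (11.2). The intervals of Tlr6 (3.96 CPM) and Tlr8 (3.92 CPM) overlapped there, so those 2 levels could not be ordered at this depth. Tlr8 thus stood above Tlr1 with vehicle and below it with THP.

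Summed over the 7 genes, the surface receptors Tlr1, Tlr2 and Tlr6 gave 106 CPM (105 to 107) with THP and 40.1 CPM (39.2 to 41.0) with vehicle. The endosomal receptors gave 51.2 CPM (50.3 to 52.2) and 87.8 CPM (86.5 to 89.1). All 7 together gave 157 CPM with THP and 128 CPM with vehicle. Of the receptor UMIs the surface members held 67.4% (66.9 to 67.9) after THP against 31.4% (30.8 to 31.9) after vehicle. This share does not depend on how the libraries are scaled, since each library is divided by its own receptor UMIs. Tlr2 alone held 57.8% of receptor UMIs with THP and 24.2% with vehicle. Without Tlr2 the surface share, now only Tlr1 and Tlr6, was 22.8% against 9.42%. Tlr4 and Tlr5, which also act at the cell surface, are not among the 7, so these sums do not describe all surface receptors. Both were lower with THP, at ratios of 0.456 (0.434 to 0.478) for Tlr4 and 0.268 (0.205 to 0.347) for Tlr5. Tlr5 measured only 0.338 CPM with THP and 1.26 CPM with vehicle.

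The same contrast between Tlr1, Tlr2 and Tlr6 together and the endosomal members was seen inside each of the 6 larger marker-gated classes. In macrophage-gated cells (4970 with THP, 3009 with vehicle) the surface share was 66.2% (65.6 to 66.8) with THP and 28.6% (27.9 to 29.4) with vehicle. Neutrophil-gated cells gave 76.4% (74.4 to 78.2) and 42.2% (39.8 to 44.5). Monocyte-gated cells, of which there were 196 and 293, gave 90.4% (87.3 to 92.9) and 53.3% (48.6 to 58.0). The lowest surface shares were those of osteoclast-like cells, gated on Atp6v0d2, Mmp12, Acp5 and related genes, at 44.6% (42.2 to 47.1) and 19.1% (17.5 to 20.8). In none of the 6 classes did the intervals of the 2 libraries overlap.

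**Figure D2:**
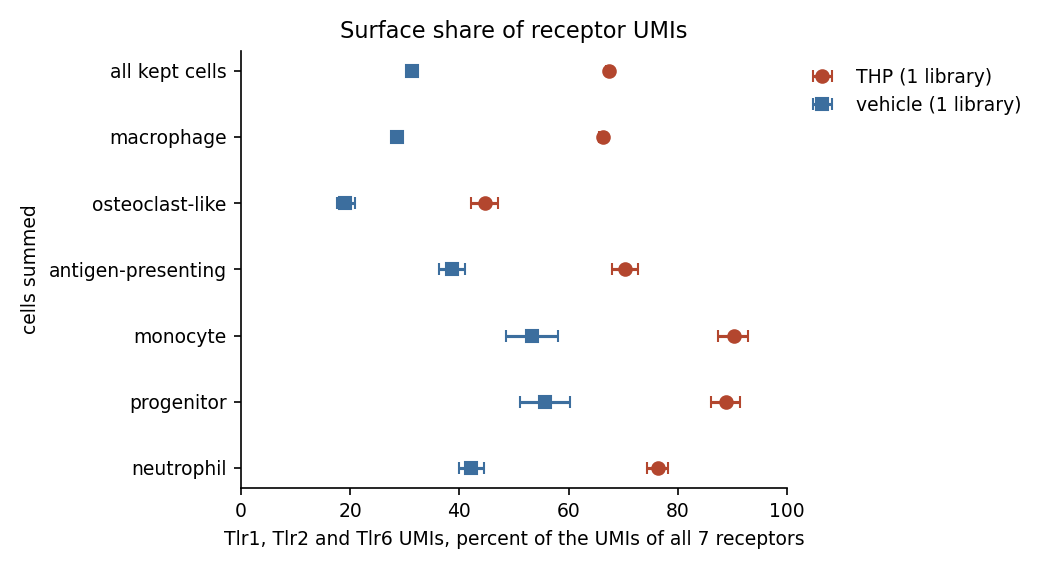
UMIs of Tlr1, Tlr2 and Tlr6 as a percent of the UMIs of all 7 receptors (horizontal axis) in all kept cells and in 6 marker-gated classes, for THP (circles) and vehicle (squares), with exact 95% binomial intervals. The THP point lies to the right of the vehicle point in each class, from 44.6% against 19.1% in osteoclast-like cells to 90.4% against 53.3% in monocyte-gated cells.

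Within macrophage-gated cells the summed level of the 7 receptors was 191 CPM (189 to 194) with THP and 195 CPM (192 to 198) with vehicle, so the total was close while its parts differed. Tlr2 measured 106 CPM (105 to 108) and 42.3 CPM (40.9 to 43.7), a ratio of 2.52 (2.42 to 2.62). Tlr1 measured 15.3 CPM (14.6 to 15.96) and 8.85 CPM (8.21 to 9.53), a ratio of 1.72 (1.58 to 1.88). Tlr6 was level, at 4.94 CPM and 4.84 CPM, with a ratio of 1.02 (0.897 to 1.16). Each endosomal member was lower with THP in these cells. Tlr13 measured 38.7 CPM (37.6 to 39.8) and 81.4 CPM (79.4 to 83.4), a ratio of 0.476 (0.458 to 0.494). Tlr7 measured 20.9 CPM and 37.0 CPM, a ratio of 0.564 (0.535 to 0.595). Tlr8 measured 4.80 CPM and 20.7 CPM, a ratio of 0.232 (0.211 to 0.255). Tlr9 rested on 22 and 27 UMIs, at 0.175 CPM and 0.339 CPM, with a ratio whose interval reached from 0.280 to 0.942. Of the 5 members past the minimum in these cells, Tlr2 was past 2-fold higher, against 0.991% of 7870 genes, and Tlr8 and Tlr13 were past 2-fold lower, against 2.38%.

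The log2 ratios of Tlr7, Tlr8 and Tlr13 were further from 0 in macrophage-gated cells (-0.80, -1.90 and -1.05) than in the whole libraries, and those of Tlr1 and Tlr2 were nearer to 0 (0.72 and 1.31). Macrophage-gated cells supplied 55.8% of all THP UMIs against 38.3% of all vehicle UMIs, and between 64.7% and 76.1% of each receptor's UMIs with THP against 43.5% to 62.2% with vehicle. When both libraries were weighted to the same mix of classes, the log2 ratios were 0.73 for Tlr1, 1.42 for Tlr2, -0.62 for Tlr7, -1.73 for Tlr8 and -0.89 for Tlr13. The directions of these 5 genes were thus the same at equal makeup.

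**Figure D3:**
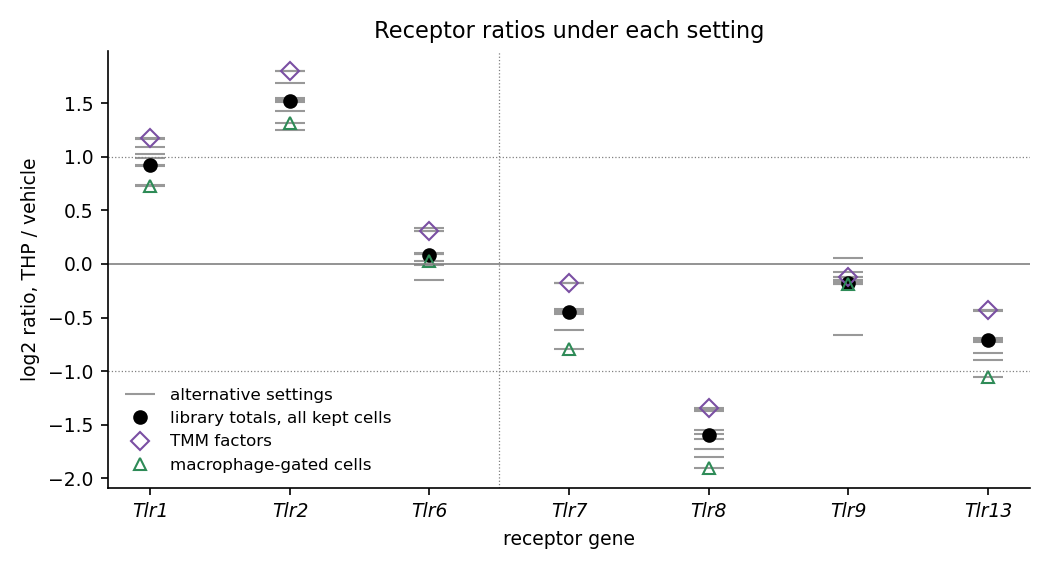
Log2 ratio of THP over vehicle (CPM + 1, or CPM + 0.1 in 1 setting) for each receptor gene with library totals (filled circles), TMM factors (diamonds), macrophage-gated cells only (triangles) and the other settings (grey bars); dotted horizontal lines mark 2-fold. Tlr1 and Tlr2 stay above 0 and Tlr7, Tlr8 and Tlr13 below 0 in all of them, while Tlr6 and Tlr9 have values on both sides of 0.

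Among macrophage-gated cells the ratios of Tlr7, Tlr8 and Tlr13 differed little, and those of Tlr1 and Tlr2 more, over 3 ranges of the summed macrophage markers, 8 to 16, 16 to 32 and at least 32 marker UMIs per 10000 UMIs of the cell. For Tlr8 the ratio of THP over vehicle was 0.241, 0.232 and 0.225 from the lowest to the highest range. For Tlr13 it was 0.489, 0.473 and 0.469, and for Tlr7 it was 0.560, 0.574 and 0.574. For Tlr2 it was 2.61 (2.44 to 2.79), 3.02 (2.83 to 3.24) and 2.10 (1.97 to 2.24), with intervals that did not overlap between any of the ranges. For Tlr1 it was 1.84 (1.58 to 2.15), 1.52 (1.32 to 1.75) and 1.94 (1.64 to 2.29), with overlapping intervals. In both libraries the CPM levels of Tlr1, Tlr2, Tlr6, Tlr7 and Tlr13 were higher in the highest range than in the lowest. The intervals of highest over lowest lay above 1 for each of them. Tlr7 went from 16.6 to 21.7 and 27.1 CPM with THP and from 29.6 to 37.9 and 47.3 CPM with vehicle. Tlr2 went from 88.4 to 110 and 133 CPM with THP, and with vehicle from 33.9 to 36.3 and 63.3 CPM. For Tlr8 the highest range had 1.17 (0.945 to 1.44) times the CPM level of the lowest with THP and 1.254 (1.11 to 1.42) times with vehicle. For Tlr13 these values were 1.198 (1.11 to 1.29) and 1.248 (1.17 to 1.33). The intervals of Tlr9 included 1 in both libraries. Cells of the highest range held fewer UMIs, a mean of 22563 against 27648 in the lowest range with vehicle. Per cell with vehicle, Tlr2 stood at 1.43 against 0.938 UMIs, Tlr7 at 1.07 against 0.818 and Tlr13 at 2.07 against 2.04.

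Across classes, each receptor had its own distribution. Tlr1 was highest in macrophage-gated and osteoclast-like cells, at 8.85 CPM and 10.3 CPM with vehicle. It measured 3.75 CPM in antigen-presenting cells with vehicle, and 8.24 CPM with THP, and with vehicle 1.02 to 1.64 CPM in neutrophil-, monocyte- and progenitor-gated cells. Tlr2 was detected at similar levels in several classes. With vehicle it measured 42.3 CPM in macrophage-gated, 39.1 CPM in monocyte-gated, 34.5 CPM in antigen-presenting and 33.8 CPM in neutrophil-gated cells, and 15.4 CPM and 10.7 CPM in osteoclast-like and progenitor-gated cells. The intervals of macrophage- and monocyte-gated cells overlapped. With THP the monocyte-gated cells stood highest for Tlr2, at 128 CPM (116 to 141), or 1.21 (1.09 to 1.33) times the macrophage-gated level.

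Tlr13 was highest in the macrophage and osteoclast-like classes. With vehicle it measured 81.4 CPM and 83.5 CPM there, a ratio of osteoclast-like to macrophage-gated cells of 1.03 (0.963 to 1.09). With THP it measured 53.1 CPM (48.9 to 57.6) in osteoclast-like cells against 38.7 CPM in macrophage-gated cells, a ratio of 1.37 (1.26 to 1.49). Progenitor-gated cells had the lowest Tlr13 of these 6 classes, at 2.15 CPM and 3.74 CPM. Tlr8 followed a like order with vehicle, with 20.7 CPM in macrophage-gated, 20.9 CPM in osteoclast-like, 12.4 CPM in monocyte-gated, 10.9 CPM in antigen-presenting, 10.1 CPM in neutrophil-gated and 2.46 CPM in progenitor-gated cells. Among these 6 classes Tlr7 was highest in macrophage-gated cells with vehicle, at 37.0 CPM against 25.1 CPM in osteoclast-like cells, and these levels came to 20.9 CPM and 19.4 CPM with THP.

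**Figure D4:**
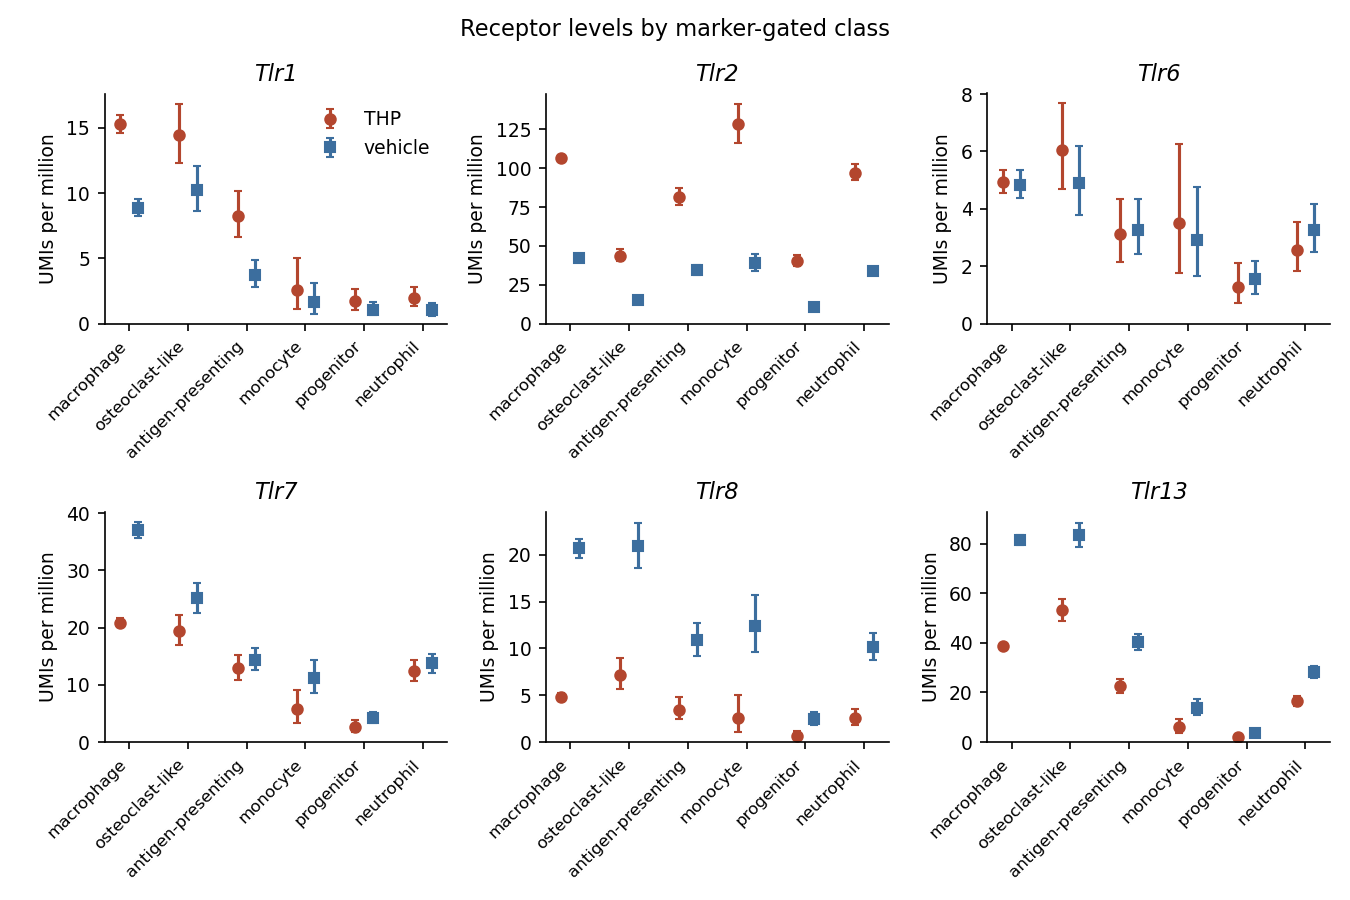
Level of 6 receptor genes in CPM (vertical axes, each from 0) in 6 marker-gated classes with THP (circles) and vehicle (squares), with exact 95% Poisson intervals. Tlr2 is higher with THP in all 6 classes, Tlr8 and Tlr13 are lower in all 6, and the Tlr6 intervals overlap in every class.

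The direction of Tlr2, Tlr8 and Tlr13 was the same in each of these 6 classes. The Tlr2 ratio ranged from 2.37 (2.12 to 2.65) in antigen-presenting cells, gated on Cd74 and MHC class II genes, to 3.79 (3.22 to 4.49) in progenitor-gated cells. The Tlr8 ratio ranged from 0.205 (0.0851 to 0.427) in monocyte-gated cells to 0.345 (0.266 to 0.443) in osteoclast-like cells. The Tlr13 ratio ranged from 0.441 (0.252 to 0.738) in monocyte-gated cells to 0.637 (0.576 to 0.703) in osteoclast-like cells. The intervals of all these ratios lay on 1 side of 1. The levels in progenitor- and monocyte-gated cells are given beside those of 5 macrophage genes (Apoe, Cd5l, Ms4a7, Pf4 and Trem2), since free RNA can carry transcripts between droplets. In progenitor-gated cells Tlr13 stood at 5.55% and 4.60% of its macrophage-gated level, inside the range of these genes (2.87% to 11.1% with THP, 0.895% to 7.00% with vehicle), and Tlr8 at 12.5% and 11.9%. In monocyte-gated cells Tlr13 stood at 15.6% and 16.8%, below Trem2 at 20.6% and 20.4% and above the other 4 genes. Csf1r, which was also used as a yardstick, stood higher than these 5 genes. It was at 32.2% and 20.3% in progenitor-gated cells, above Tlr8 and Tlr13 there. In monocyte-gated cells it was at 63.7% and 47.5%, above Tlr13. The part of macrophage RNA in the Tlr13 and Tlr8 ratios of these classes was not tested. Whether a ratio differed between classes was not tested, since each class has 1 library per group.

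Tlr7 was less uniform. Its ratio was 0.564 in macrophage-gated cells and 0.514 (0.286 to 0.881) in monocyte-gated cells, but 0.896 (0.719 to 1.11) in antigen-presenting and 0.899 (0.740 to 1.09) in neutrophil-gated cells. The last pair of intervals includes 1, and the log2 ratios there, -0.15 and -0.14, turned to 0.08 and 0.09 in at least 1 of the alternative settings. Tlr1 had ratios above 1 in all 6 classes, with intervals above 1 in macrophage-gated, osteoclast-like, antigen-presenting and neutrophil-gated cells. In neutrophil-gated cells Tlr1 rested on 29 and 20 UMIs.

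The proportions within the endosomal set also differed. Tlr8 made up 19.2% (18.1 to 20.4) of the summed Tlr7 and Tlr8 UMIs with THP and 37.7% (36.7 to 38.8) with vehicle. In macrophage-gated cells this share was 18.7% and 35.8%, and in neutrophil-gated cells 17.3% and 42.4%. Tlr13 kept a similar part of all endosomal UMIs, 59.8% (58.9 to 60.7) with THP and 57.8% (57.1 to 58.5) with vehicle. Of the summed Tlr1 and Tlr6 UMIs, Tlr1 made up 73.9% (72.4 to 75.4) with THP and 59.7% (57.5 to 61.9) with vehicle. That last share depends on how reads from the stretches common to Tlr1 and Tlr6 were counted, a step not given in the sources used here.

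Neutrophil-gated cells carried Tlr2 at 97.2 CPM (92.2 to 102) with THP and 33.8 CPM (31.3 to 36.5) with vehicle, a ratio of 2.88 (2.62 to 3.16). Tlr8 measured 2.58 CPM (1.82 to 3.54) and 10.1 CPM (8.77 to 11.6) there, and Tlr13 16.5 CPM (14.5 to 18.7) and 28.2 CPM (25.9 to 30.6). Of the 4 members past the minimum in neutrophil-gated cells, Tlr2 was past 2-fold higher, against 1.44% of 7378 genes, and Tlr8 past 2-fold lower, against 4.76%. Free RNA from broken macrophages can place macrophage transcripts in such droplets. The macrophage genes Apoe, Cd5l, Ms4a7, Pf4 and Trem2 stood in neutrophil-gated cells at 4.72% to 10.7% of their macrophage-gated level with THP and at 1.94% to 7.03% with vehicle, and Csf1r at 42.0% and 22.7%. Tlr2 stood there at 91.3% and 79.9% of its macrophage-gated level, Tlr7 at 59.2% and 37.1%, Tlr13 at 42.6% and 34.6%, and Tlr8 at 53.8% and 49.0%. The neutrophil gate left out cells past the macrophage gate, and none of these 6 genes is a marker of that gate. Tlr1, at 12.9% and 11.5%, stood just above the first 5 genes, and the part of free RNA in its neutrophil values was not tested.

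Along neutrophil maturation the receptors differed. Neutrophil-gated cells were divided by the share of late markers (Retnlg, Csf3r, Mmp8, Cxcr2) in the summed UMIs of these and the granule genes Ltf, Camp, Ngp and Ly6g. Cells under 10% numbered 1196 with THP and 1457 with vehicle, and cells at 50% or more numbered 725 and 964. Tlr2 measured 58.2 CPM, 124 CPM and 192 CPM from the least to the most mature range with THP, and 16.4 CPM, 37.3 CPM and 85.6 CPM with vehicle. The most mature range thus had 3.30 (2.92 to 3.72) times the Tlr2 level of the least mature range with THP and 5.23 (4.38 to 6.26) times with vehicle. Tlr13 showed the same order, from 10.2 to 30.9 CPM with THP and from 15.4 to 64.9 CPM with vehicle, and so did Tlr8, from 1.63 to 4.75 CPM and from 6.20 to 19.9 CPM. Tlr7 differed less, with ratios of most to least mature of 1.16 (0.781 to 1.69) with THP and 1.48 (1.11 to 1.97) with vehicle.

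Cells of the most mature range held fewer UMIs, so levels per cell are given beside those in CPM. The mean was 4061 UMIs of all genes per cell in the most mature range in both libraries, against 7683 with THP and 8518 with vehicle in the least mature range. Counted per cell, Tlr2 still stood higher in the most mature range, at 0.779 against 0.447 UMIs with THP and 0.348 against 0.139 with vehicle, although the middle range was highest with THP, at 0.835. Tlr13 stood at 0.126 against 0.0786 UMIs per cell with THP and 0.263 against 0.131 with vehicle. Tlr7 stood lower per cell in the most mature range, at 0.0538 against 0.0878 UMIs with THP and 0.0757 against 0.107 with vehicle. In each range Tlr2 was higher with THP than with vehicle, with ratios of 3.56 (3.02 to 4.20), 3.32 (2.67 to 4.15) and 2.24 (1.96 to 2.57). Tlr8 was lower in each, with ratios of 0.263, 0.268 and 0.239.

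**Figure D5:**
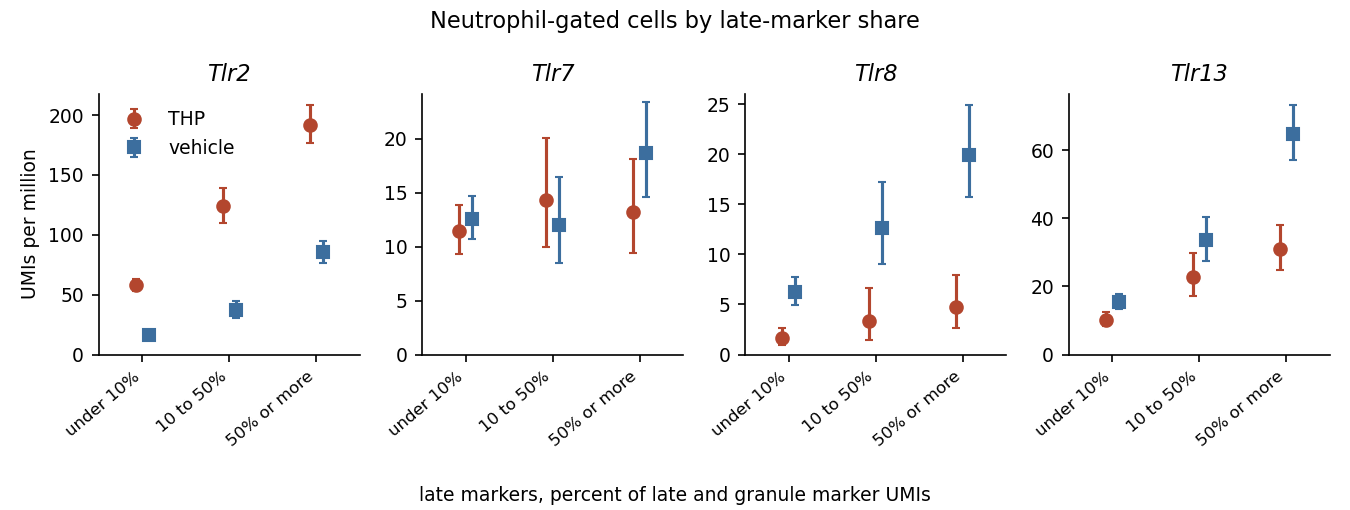
Level of Tlr2, Tlr7, Tlr8 and Tlr13 in CPM (vertical axes, each from 0) in 3 ranges of neutrophil-gated cells ordered by the share of late markers, with THP (circles) and vehicle (squares) and exact 95% Poisson intervals. Tlr2, Tlr8 and Tlr13 are higher at a larger late-marker share in both libraries, and Tlr7 lies between 11.4 and 18.6 CPM throughout.

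Plasmacytoid-gated cells (Siglech, Ccr9 and related genes) were few, 58 with THP and 51 with vehicle. Tlr7 was detected there with 8 UMIs after THP, or 22.5 CPM (9.71 to 44.3), against 14 UMIs or 40.8 CPM (22.3 to 68.5) after vehicle. Tlr9, for which plasmacytoid dendritic cells are known, had 0 UMIs in both, with exact intervals of 0 to 10.4 CPM with THP and 0 to 10.8 CPM with vehicle. Tlr6 and Tlr8 had 0 UMIs there too. The B-lineage and mast cell or basophil classes had fewer than 50 cells in at least 1 library, and their receptor levels are not described.

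The share of cells in which a receptor was seen gave the same directions. In macrophage-gated cells Tlr2 had a UMI in 79.7% (78.6 to 80.8) of cells with THP and 55.0% (53.2 to 56.8) with vehicle. Tlr13 was seen in 54.0% and 80.3% of these cells, and Tlr8 in 10.9% and 37.9%. With each cell thinned to 5000 UMIs, which left out 167 and 89 shallower cells, the shares were 39.0% and 19.7% for Tlr2, 17.5% and 33.5% for Tlr13, and 2.48% and 10.4% for Tlr8. Stromal-gated cells (Col1a1, Col3a1 and related genes) were read beside these as a class of another lineage, at median depths of 20810 and 39385 UMIs against 21008 and 23070 in macrophage-gated cells. Before thinning, Tlr2 had a UMI in 28.4% and 22.2% of stromal-gated cells and Tlr13 in 11.1% and 30.6%. Macrophage genes were detected in this class as well, relative to their macrophage-gated level: Apoe at 52.3% and 34.4%, Cd5l at 36.7% and 47.4% and Ms4a7 at 35.2% and 25.9%. Csf1r stood at 29.5% and 24.8%, Trem2 at 26.9% and 28.7% and Pf4 at 17.8% and 8.32%. The median of macrophage-marker UMIs per 10000 was 0.687 and 0.553, against 18.9 and 20.1 in macrophage-gated cells. Where these transcripts came from was not tested. The surface receptors held 80.2% of the stromal receptor UMIs with THP and 31.4% with vehicle, the same direction as in the 6 classes above. The thinned shares of stromal-gated cells were 6.41% and 4.23% for Tlr2 and 2.56% and 8.45% for Tlr13. For Tlr8 they were 0 of 78 cells, with an exact interval of 0 to 4.62%, and 1.41%, so thinning left too few UMIs to set the macrophage share with THP apart from the stromal one. Unthinned, Tlr8 with THP was seen in 10.9% (10.1 to 11.8) of macrophage-gated cells and in 0 of 81 stromal-gated cells (0 to 4.45%). Depth was nearly equal with THP, and the Tlr8 level was 4.80 CPM (4.42 to 5.19) against 0 CPM (0 to 1.80). With vehicle, Tlr8 was seen in 37.9% of macrophage-gated cells and in 7 of 72 stromal-gated cells (9.72%), which were deeper. The Tlr8 level with vehicle was 20.7 CPM in macrophage-gated cells against 4.94 CPM (2.76 to 8.14), from 15 UMIs, in stromal-gated cells. The interval of that stromal level includes 4.80 CPM, the macrophage-gated level with THP.

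Of 59 other genes of the pathway in 9 lists, 44 had at least 10 CPM in 1 library. Of these 44, 3 were at least 2-fold higher with THP, where 0.911% of all genes were, and 2 at least 2-fold lower, where 2.97% were. The lower count is near that background. The median log2 ratio of the 44 was 0.02, against -0.18 for all genes. The genes on the higher side were Cd14, a co-receptor that hands lipopeptides to Tlr2 (893 CPM and 310 CPM, log2 ratio 1.52), the kinase gene Ikbke (1.16) and Tnfaip3, which encodes the inhibitor A20 (1.22). Those on the lower side were Tlr4, the lipopolysaccharide receptor (10.99 CPM and 24.1 CPM, -1.07), and Slc29a3, a lysosomal nucleoside transporter (-1.05). With TMM factors 5 genes were past 2-fold higher and none past 2-fold lower.

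Genes that serve the endosomal receptors did not share one direction with them. Unc93b1, which carries Tlr7, Tlr9 and Tlr13 to endosomes, measured 193 CPM with THP and 190 CPM with vehicle, a log2 ratio of 0.03. Of 8 trafficking genes, 4 had ratios above and 4 below 0, from 0.85 for Slc15a3, an endolysosomal peptide transporter, to -1.05 for Slc29a3. The 4 endosomal proteases past the minimum ranged from 0.49 for Ctsl to 0.00 for Ctss, and the 4 nucleases from 0.54 for Rnaset2a to 0.01 for Pld4. In macrophage-gated cells alone, the median log2 ratio of 7870 genes was -0.16. Of these 8 genes, 6 had ratios below 0 there, and only Ctss, at -0.19, was also below that median. The others were Ctsb at -0.05, Lgmn at -0.08, Pld3 at -0.13, Pld4 at -0.11 and Dnase2a at -0.07. Ctsl stood at 0.13 and Rnaset2a at 0.63 there. Surface partners ranged from Cd14 to Cd180, a relative of the receptors that dampens their signal in some cells, at -0.69. Among adaptors, Myd88 stood at 0.51 and Tirap, which bridges Tlr2 and Tlr4 to Myd88, at -0.39. Kinases and ligases ranged from Ikbke to Irak4 at -0.59, interferon regulatory factors from Irf7 at 0.56 to Irf8 at -0.13, and inhibitors from Tnfaip3 to Rnf216 at -0.76.

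Likeness to each receptor was measured as Pearson's r of log2(CPM + 1) over 17 combinations of class and library with at least 50 cells, which share 2 libraries and are given as a description. The genes most like Tlr2 were Cd14 (r = 0.88) and Gpr84 (0.85), and those most like Tlr1 were Rasgef1b (0.92) and Bcl2l1 (0.91). For Tlr6 they were Ctnnbip1 and Stard8 (both 0.94), for Tlr7 Mpeg1 (0.94) and Txnip (0.92), for Tlr8 Actr2 (0.93) and Dhrs9 (0.91), and for Tlr13 Mitf and Klf6 (both 0.92). For Tlr9, at the limit of detection, the highest values were 0.77 for Plekhg3 and 0.75 for Usp12. Among the receptors themselves the largest values were between Tlr8 and Tlr13 (0.86), Tlr6 and Tlr13 (0.85) and Tlr6 and Tlr8 (0.84). The combinations include plasmacytoid-gated cells of both libraries and mast cells or basophils with THP, where Tlr6 and Tlr8 had 0 UMIs and Tlr13 at most 2. How much these low counts add to the values was not tested. Tlr2 and Tlr7 had a value of 0.06, and Tlr2 and its partners Tlr1 and Tlr6 had 0.25 and 0.61.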

How the data were processed

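Single-cell RNA was measured in 2 libraries, 1 per group, so no test across samples could be made. The authors deposited raw UMI counts per gene and barcode, made with Cell Ranger, STAR and bcl2fastq on the build mm10 per the submitters' processing notes; per the file headers the matrices were written by software version 3.1.0. For reads with several matches, the counting rule was not given in the sources used here. Barcodes with at least 500 genes, 1000 UMIs and at most 10% mitochondrial UMIs were kept (1070 and 606 left out). Counts were summed per library or class and given as CPM with exact Poisson intervals, ratios with exact conditional binomial intervals, and shares with exact Clopper-Pearson intervals, all at 95% and for counting error only. A gene was called past 2-fold with at least 10 CPM in 1 library and a 2-fold ratio of CPM + 1. Depth was 224825484 and 207662132 UMIs, so counting error is small in whole libraries and large in small classes.

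Cells were classed by marker UMIs per 10000 UMIs of the cell (limits from 8 for macrophage to 256 for neutrophil markers, set after their distributions were seen), which placed 77.6% of THP cells and 76.0% of vehicle cells in 10 classes. Neutrophil-, progenitor- and monocyte-gated cells were below the macrophage limit, whereas cells of the other classes could also pass it. Cells past other combinations of gates were left out of the classes. No doublet caller was run. The 2 groups carry the labels' treatment, and the named genes are the 7 receptors, pathway genes past 2-fold, the highest and lowest ratio of each list, and the 2 genes most correlated with each receptor. The receptors, lists and markers were chosen with earlier results of these data known. The 6 macrophage genes used as a yardstick for free RNA, the neutrophil and macrophage ranges and the alternatives for the surface share were chosen after seeing the data. Alternatives were other scalings (TMM and RLE factors, edgeR 4.0.16 in R 4.3.3), all barcodes, cells without the top 5% of UMIs, equal weight per cell, equal class mix, removal of the length trend, another pseudocount, another fold limit, no minimum and macrophage-gated cells. Other steps used Python 3.11.15 with numpy 2.4.6, scipy 1.17.1, pandas 2.3.3, statsmodels 0.14.6 and matplotlib 3.10.9. The whole-library ratio and the 2-fold rule were tested on simulated counts. Transcript lengths from GENCODE M21 matched 31011 of 31053 genes.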

Additional observations from a re-analysis of the deposited data

Results flagged for a closer look

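Barcodes outside the cell filter, which enter the comparisons of the report only in the alternative over all barcodes, also carried receptor transcripts. For 2 genes the THP interval lay above the vehicle interval. Tlr2 measured 148 CPM (133 to 165) in the 1070 THP barcodes left out and 44.1 CPM (33.9 to 56.4) in the 606 vehicle barcodes left out. Tlr1 measured 13.02 CPM (8.78 to 18.6) with 30 UMIs and 2.80 CPM (0.762 to 7.16) with 4 UMIs. Tlr8 and Tlr13 were lower with THP in these barcodes as well, at 6.94 CPM against 21.0 CPM and at 46.9 CPM against 76.9 CPM. The values rest on 2304186 and 1429915 UMIs and have no replicate.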

How the results depend on the processing

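No paired analysis was possible because each group is 1 library. With TMM or RLE factors the receptor genes past 2-fold higher became 2 (Tlr1 joined Tlr2), all genes 138 higher and 69 lower, pathway genes 5 higher and 0 lower, and the median log2 ratios 1.17 and 1.16 for surface and -0.30 and -0.31 for endosomal receptors, against 0.92 and -0.58 with library totals. Removal of the length trend gave 2 receptor genes higher, 116 and 70 genes, 0 pathway genes lower, medians of 1.09 and -0.30, and turned Tlr9 to 0.054. A pseudocount of 0.1 gave 2 receptor genes higher and medians of 1.03 and -0.70. A limit of 1.5-fold gave 2 receptor genes higher and 2 lower, 187 and 1387 genes, and 6 and 5 pathway genes. In macrophage-gated cells 2 receptor genes were past 2-fold lower and the medians were 0.72 and -0.92. The same class mix gave medians of 0.73 and -0.76 and 1 pathway gene lower, and equal weight per cell 0 lower. The surface share was 66.2% with THP and 28.6% with vehicle in macrophage-gated cells, and 22.8% and 9.42% without Tlr2. TMM and RLE factors scale all genes of a library by the same factor. The 1.5-fold limit, the other pseudocount and the fewer members summed in the last case act by definition. The causes of the other shifts were not tested. Without the 5% of cells with most UMIs, and over all barcodes, the 7 receptor ratios kept their direction. Halved or doubled gate limits, TMM factors within a class and leaving out the deepest cells kept the sign of 105 of 108 ratios within classes. The exceptions were Tlr7 in antigen-presenting and neutrophil-gated cells and Tlr2 in plasmacytoid-gated cells. Only genes with at least 10 CPM in 1 library of a class entered the 108. Tlr6 and Tlr9 were thus left out in every class, and Tlr1 entered only for macrophage-gated and osteoclast-like cells. Depth limits Tlr9 in every class and all members in plasmacytoid-gated cells.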
